A study of Mus musculus with 20 samples.

Results

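Treatments of 2 kinds that act on histone deacetylases were combined in mouse muscle, and the question was whether their effects on messenger RNA add up. All 20 arrays of the series enter the comparison. They come from the extensor digitorum longus, a muscle of mostly fast fibres in the hindlimb, from 10 C57Bl6 males. At 8 weeks of age each leg received 30 µL of an adeno-associated viral vector (rAAV, serotype 6). Every left leg carried an empty vector (EV and ES groups), and every right leg carried vectors for mutant deacetylases, D832N in HDAC4 and D861N in HDAC5, named dnHDAC4/5 in the labels (HV and HS groups). After 4 weeks, 5 of the mice received an intraperitoneal injection of Scriptaid (ES left, HS right) and the other 5 received vehicle, 5% DMSO in PBS (EV left, HV right). The labels used here give no Scriptaid dose and no time of collection. They speak of a cross-over, but each animal identifier carries 1 injection only, and the ES titles say vehicle where the treatment entry and identifiers say Scriptaid; the latter were followed. The promoter that drives the mutants is not stated, so the cells that express them are not known. The empty vector always went left, so leg side and vector cannot be told apart. Each group also had the same place on every slide, so place cannot be told apart from the vector, from Scriptaid or from their departure.

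Class IIa histone deacetylases, to which HDAC4 and HDAC5 belong, bind MEF2 transcription factors in muscle nuclei and hold their target genes down. Nerve activity and exercise lead to their export from the nucleus. A dominant-negative form is meant to compete with the native protein, while Scriptaid, a hydroxamic acid, blocks the zinc-dependent catalytic site of deacetylases.

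For each animal the left leg was subtracted from the right, on the log2 scale, after each array's 75th percentile had been removed; this is called the leg difference. The mean of the 5 leg differences in Scriptaid animals minus the mean of the 5 in vehicle animals is called the departure. It is 0 where the effects of vectors and drug add on the log2 scale, positive where the right leg with both treatments is above the sum, and negative where it is below. Each animal counts once, so p-values measure the spread between animals. Array brightness, taken as the 75th percentile of processed intensity, ranged from 248.43 to 608.14, and 51.72% to 61.34% of spots were well above background. Array-edge spots were left out, because spots over 3 log2 units dimmer than on the other arrays made up 2.25% to 3.6% of them on HS arrays and 0% to 0.385% on the others. Inside the edges such spots made up 0.0576% to 0.257% on HS arrays and 0.0131% to 0.0812% on the others, apart from the EV array of replicate 5 with 0.932%.

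No gene departed from additivity past the threshold. Of 14594 genes, 0 (0%) had a limma adjusted p under 0.05, and the smallest adjusted p was 0.875. At an unadjusted p under 0.05 there were 713 genes (4.89%), 440 of them with a positive departure (3.01%) and 273 with a negative one (1.87%), where 5% would be expected with no departure anywhere. Among 12845 genes measured in all 10 animals, the leg differences of the groups did not overlap for 91 genes that were higher in Scriptaid animals (0.708%) and for 49 that were lower (0.381%). The median departure over all genes was 0.03 and its median size 0.17. The typical precision was a 95% interval of ± 0.478, and 73.5% of the genes had an interval that lay inside -1 to 1. Only 28.4% had an interval inside -0.5 to 0.5.

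Few genes passed the test for the vectors by themselves. In vehicle animals 0 genes (0%) were called by limma, in Scriptaid animals 1 gene, Pla2g5 (0.00685%), and averaged over the 10 animals 60 genes (0.411%), of which 36 were higher and 24 lower in the right leg. The pooled count rested on single animals: leaving out 1 at a time gave 190 genes without vehicle animal 5 and 168 without Scriptaid animal 3, 18 without vehicle animal 3, 11 without Scriptaid animal 2, 3 without vehicle animal 1, 2 or 4, and 2 without Scriptaid animal 1, 4 or 5. It was 8 with normexp background correction, 8 with the slide as block and 268 with the array edges kept, where 19 departures were called as well. In Scriptaid animals alone the count was 0 without animal 1, 4 or 5. The difference between the vehicle and Scriptaid counts is not itself a test of departure, which is the comparison above. Over all genes the mean leg differences of the groups correlated with r = 0.26, a description over genes that are not independent. Between the animals of one slide, r ranged from -0.06 to 0.28. Of the 100 genes with the smallest p for the vector in vehicle animals, 85 had the same sign in Scriptaid animals. Their median size was 0.35 there against 0.66 in vehicle animals. Of the 100 chosen in Scriptaid animals, 85 had the same sign in vehicle animals, with 0.22 against 0.72. Over all 14594 genes the share of equal sign was 60.7%. The p-values that ranked both lists used a variance from all 10 animals, so neither list was chosen from its own group alone.

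**Figure D1:**
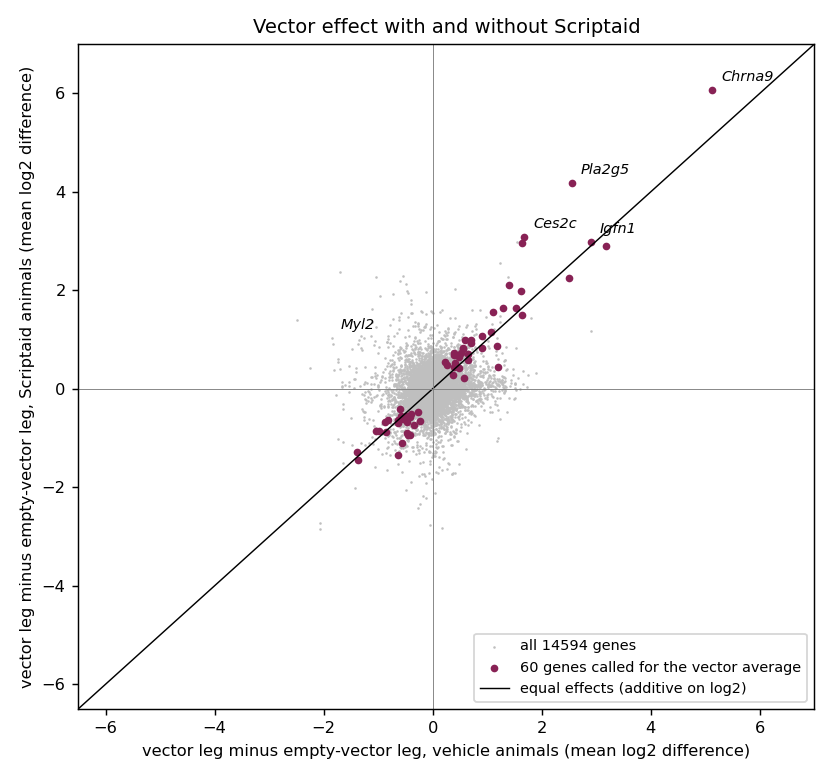
Mean leg difference (right minus left, log2) of each gene in the 5 vehicle animals on the x axis and in the 5 Scriptaid animals on the y axis. Genes on the diagonal are additive; the cloud is broad around it (r = 0.26) and the genes called for the vector average lie in the 2 quadrants of equal sign.

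Pla2g5, a secreted phospholipase A2, was the vector-responsive gene with the smallest p. Its leg differences were 1.69, 2.54, 2.79, 4.40 and 1.30 in vehicle animals 1 to 5, and 3.93, 4.01, 3.55, 5.28 and 4.08 in Scriptaid animals 1 to 5. All 10 right legs were above their left legs, and only vehicle animal 4 lay within the Scriptaid range. The departure was 1.62 ± 0.55 (SE, n = 5 and 5; 95% interval 0.41 to 2.84), with a two-sided exact permutation p of 0.0397 and a limma adjusted p of 0.907. The mean log2 level was -0.91 in EV, -1.97 in ES, 1.64 in HV and 2.20 in HS, against 0.58 for an additive HS. Both legs thus entered the departure: the left leg was lower and the right leg higher with Scriptaid.

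Chrna9, a subunit of acetylcholine receptors, was not well above background in any EV or ES array, but was so in 4 HV and all 5 HS arrays. It was at least 11.6-fold higher in the right leg of vehicle animals and at least 25.7-fold higher in that of Scriptaid animals, a bound set by the dimmest probes well above background on the left. Its log2 levels in the right legs were -0.13, 0.68, -0.42, 1.69 and -5.38 in HV and 0.30, -0.94, -0.37, 2.24 and -0.33 in HS. Only that of vehicle animal 5 was low. Since every left leg was at background, no exact leg difference or departure can be read for this gene.

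Ces2c, a carboxylesterase, had leg differences of 1.92, 2.13, 1.18, 3.52 and -0.36 in vehicle animals, and 3.11, 3.08, 1.92, 2.99 and 4.31 in Scriptaid animals. It was well above background on all 5 HV and all 5 HS arrays and on 4 EV arrays, but on 1 ES array only, so most of the Scriptaid differences were taken against background and the departure has no exact size. Probes of the Ces2 family may share transcripts, so the member is uncertain. The list of carboxylesterase 2 and secreted phospholipase genes, which holds both, had 5 of 5 measured members with a positive departure, where 54.9% of all genes had one; only Pla2g5 was at p under 0.05.

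Igfn1, a sarcomeric immunoglobulin-like protein, gave 4.30, 4.32, 1.31, 3.42 and 1.13 in vehicle animals and 1.88, 2.87, 1.96, 4.76 and 3.41 in Scriptaid animals, a departure of 0.08 ± 0.78 (SE). Gsdma, a pore-forming gasdermin, gave 4.47, 3.96, 1.35, 2.88 and -0.16 against 2.54, 1.70, 1.18, 2.27 and 3.60, a departure of -0.24 ± 0.84; it was well above background on 3 EV and 3 ES arrays. In both genes the groups overlapped almost wholly. Tlr5, the receptor for bacterial flagellin, departed by 0.09 ± 0.27, Sytl2, a Rab27 effector, by 0.16 ± 0.24, Odc1, the first enzyme of polyamine synthesis, by 0.25 ± 0.18, and Scx, a tendon transcription factor, by 0.46 ± 0.34. Other raised genes had departures with intervals that left out 0 before adjustment: Trp63 at -0.74 ± 0.28 (-1.36 to -0.12), Rph3al at -0.36 ± 0.12 (-0.62 to -0.10), both against the vector, and Stmn3 at 0.32 ± 0.13 (0.02 to 0.61). Hspa1b, an inducible Hsp70 that probes may not tell from Hspa1a, departed by 1.32 ± 0.74. It was well above background on 3 EV, 4 HV, 3 ES and 5 HS arrays, and Stmn3 on 4 EV, 5 HV, 3 ES and 3 HS arrays. Some leg differences of both were thus taken against background.

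Among named genes lowered by the vectors, Mmd and Cdyl had lower mean leg differences in Scriptaid animals. Mmd gave -0.41, -0.52, -0.29, -0.81 and -0.07 in vehicle animals and -1.04, -1.23, -0.52, -1.05 and -0.85 in Scriptaid animals. Its departure was -0.52 ± 0.18 (SE), with an exact permutation p of 0.0159 and a limma adjusted p of 0.907; its second kept probe gave 0.13. Cdyl, a chromodomain corepressor, gave -0.31, -0.56, -0.19, -0.92 and -0.26 against -0.75, -1.40, -0.89, -0.60 and -1.03. Its departure was -0.49 ± 0.19, with an exact permutation p of 0.0397, and its second probe gave 0.07. So in neither gene did the further probe repeat the departure. That of Cdyl did not repeat the lowering either, with mean leg differences of 0.02 in vehicle and 0.09 in Scriptaid animals. Mean leg differences of the further Mmd probe were small, -0.20 and -0.07. Mdga1 departed by -0.21 ± 0.16, Hhatl by -0.03 ± 0.27 and Ppapdc3 (now Plpp7) by 0.13 ± 0.26.

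**Figure D2:**
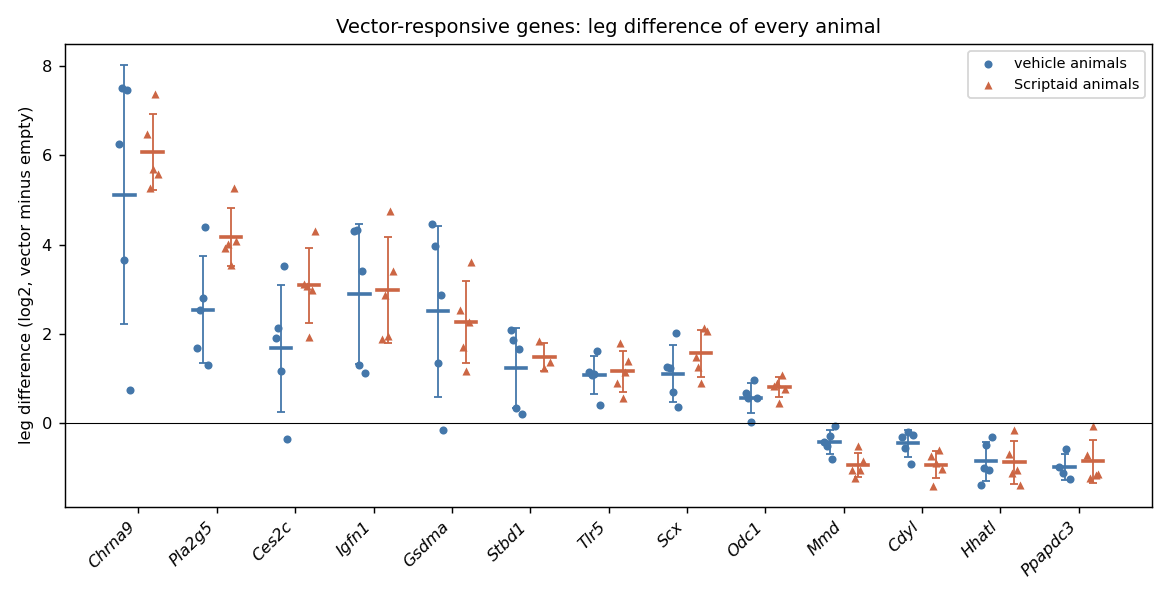
Leg difference (log2, right minus left) of every animal for 13 vector-responsive genes; points are animals, bars the mean and error bars the SD of 5 animals where all were measured. The Scriptaid animals of Pla2g5, 3.55 to 5.28, lie above 4 of the 5 vehicle animals, and those of Igfn1 and Gsdma overlap with theirs. The left legs of Chrna9 and most ES legs of Ces2c were at background, so their points have no exact size.

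Over all 60 vector-called genes, chosen by the vector average and not by the departure, 42 departed along the vector's direction, 17 against it and 1 (Cstad) was at 0.00. The median departure along that direction was 0.14, against 0.04 over all genes, of which 8255 went along and 6280 against. The median size of the leg difference was 0.64 in vehicle animals and 0.82 in Scriptaid animals, and over all genes 0.13 and 0.16. At an unadjusted p under 0.05 stood 8 of the 60, 6 along (Pla2g5, Mmd, Cdyl, Slc37a4, Stmn3 and the transcript AK034127) and 2 against (Rph3al and Trp63); over all genes 713 stood there, 488 along and 222 against. Without vehicle animal 4 the 6 became 14, without Scriptaid animal 3 they became 9, without vehicle animal 2 they became 4, and without vehicle animal 3 or 5 they became 3. No interval lay wholly beyond 0.5 in size, and 42 lay inside -1 to 1. The count along the vector also turned on single animals: of the same 60 genes, 36 went along without vehicle animal 5 and 49 without Scriptaid animal 3. Vehicle animal 5 had the smallest median leg difference over the 36 raised genes, 0.38, where the other vehicle animals had 0.66 to 1.31 and the Scriptaid animals 0.61 to 1.28.

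**Figure D3:**
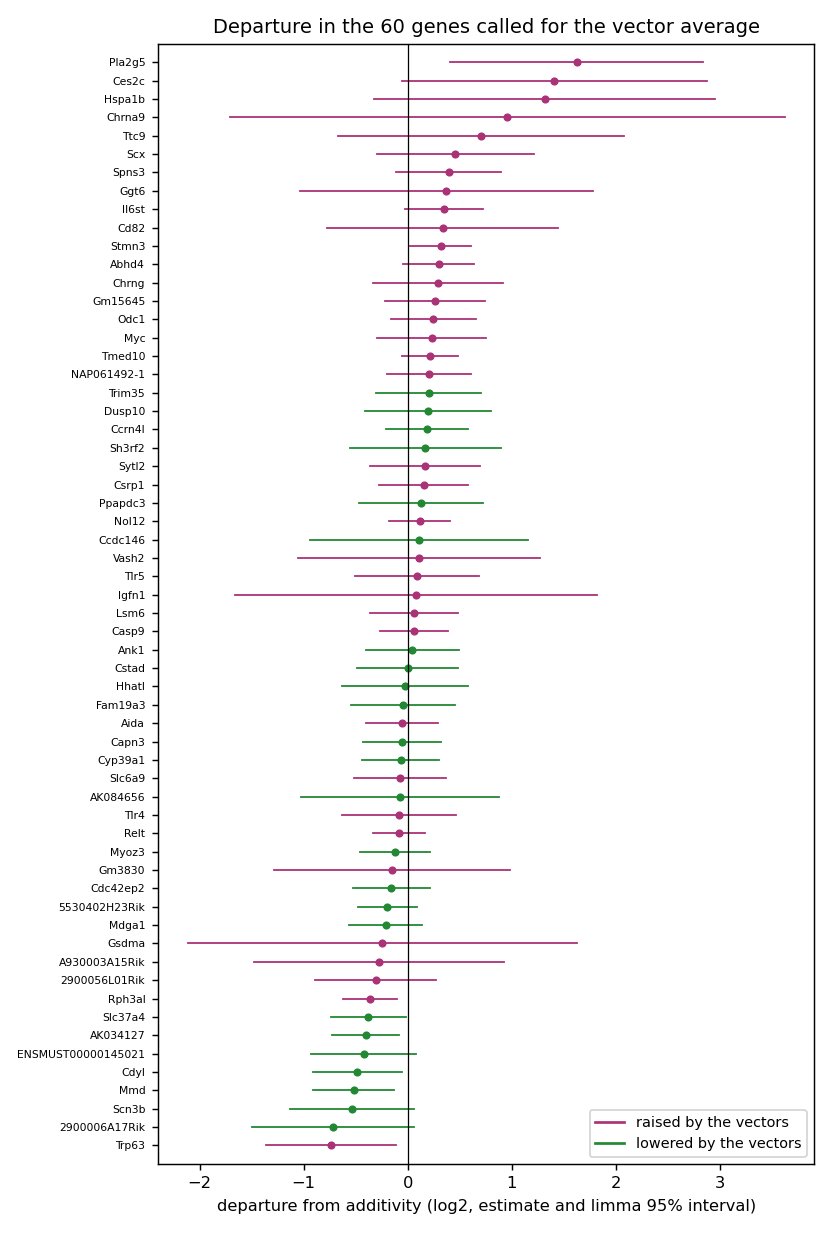
Departure (log2) of the 60 genes called for the vector average, with limma's 95% interval; 42 of the estimates point along the vector's direction. Most intervals cross 0, and none lies wholly beyond 0.5 in size.

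Since MEF2 factors are the known partners of class IIa deacetylases, the promoter windows were searched for the motif CTANNNNTAG. It allows any base at the 4 middle places, where a MEF2 site has only A or T. The motif is thus looser than a MEF2 site, and a match need not be one. It equals its own reverse complement, so that a search of either strand is the same. Windows run from 250 bases before to 50 after each start (RefSeq, GRCm38.p6). The motif was in 382 of 9816 tested genes with a window (3.89%). It was in 1 of 25 genes raised by the vectors (4%), 1 of 12 lowered (8.33%), 12 of 306 with a positive departure at p under 0.05 (3.92%) and 4 of 143 with a negative one (2.8%). The shares for positive and negative departures lie near that of all genes. Those of the raised and lowered genes rest on 1 match each, which is too few to compare. A match is a description of letters, not a binding site. The 2 windows below, with the motif in capitals, are shown because they are the matches among the genes lowered by the vectors and among the 24 genes of smallest departure p. Capn3, a muscle calpain, is at chr2:120463343-120463642 on the plus strand, with the motif 72 bases before the start, and Zmpste24, the protease that matures lamin A, at chr4:121098161-121098460 on the minus strand, with the motif 229 bases before it. The middle bases are TTTT in Capn3 and CTTC in Zmpste24, so the Zmpste24 match is not of the MEF2 type.
Capn3: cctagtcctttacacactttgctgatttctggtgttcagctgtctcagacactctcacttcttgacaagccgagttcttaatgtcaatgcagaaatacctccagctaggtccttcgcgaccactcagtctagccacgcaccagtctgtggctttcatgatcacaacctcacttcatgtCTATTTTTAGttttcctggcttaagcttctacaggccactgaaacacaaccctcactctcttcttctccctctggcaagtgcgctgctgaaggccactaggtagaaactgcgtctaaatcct
Zmpste24: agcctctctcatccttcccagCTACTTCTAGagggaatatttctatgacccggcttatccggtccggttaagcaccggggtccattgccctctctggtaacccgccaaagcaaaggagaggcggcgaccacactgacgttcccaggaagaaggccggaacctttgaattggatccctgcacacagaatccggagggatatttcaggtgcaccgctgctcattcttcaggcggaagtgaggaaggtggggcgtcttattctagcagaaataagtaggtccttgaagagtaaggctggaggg

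The genes of smallest departure p are described next; they were picked for that p, none passed adjustment (limma adjusted p 0.875 or above), and their values support nothing further. Of those with a positive departure, Clec3b (tetranectin) gave -0.20, -0.04, -0.01, -0.44 and 0.25 in vehicle animals and 0.81, 1.34, 0.84, 1.52 and 0.65 in Scriptaid animals, a departure of 1.12 ± 0.20 (SE; 95% interval 0.67 to 1.57). The groups did not overlap. Its mean level was 0.07 in EV and -0.02 in HV, but -0.82 in ES and 0.21 in HS, so the left leg with Scriptaid was the low group.

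Myh3, the embryonic myosin heavy chain, gave -2.30, -1.10, -0.60, -1.54 and -1.53 in vehicle animals and 0.78, 0.93, -0.40, -0.50 and 0.86 in Scriptaid animals. The departure was 1.75 ± 0.39 (SE), its further probe gave 1.59, and the group means were -0.87 in EV, -2.28 in HV, -1.53 in ES and -1.19 in HS. HV was the lowest group, and HS lay above the additive value of -2.94. Zmpste24 gave -0.31, -0.28, -0.41, -0.72 and -0.34 against 0.25, 0.09, 0.23, 0.63 and 0.32, a departure of 0.72 ± 0.14. Il17re, an interleukin-17 receptor chain, gave -1.27, -0.77, -0.35, -0.41 and -0.12 against 0.27, 0.81, 0.49, 0.53 and 1.07, a departure of 1.22 ± 0.23. In Zmpste24 and Il17re every vehicle animal was below 0 and every Scriptaid animal above it.

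Pold1, the catalytic subunit of DNA polymerase delta, gave -0.09, 0.26, -0.07, 0.27 and -0.13 against 0.75, 0.61, 0.49, 0.46 and 0.52. Its departure was 0.52 ± 0.13, and its further probe gave 0.56. The other positive departures were N4bp2l1 (1.32 ± 0.25), Nf1, a Ras GTPase activator (0.96 ± 0.22, further probe 0.17), Ptpdc1 (0.68 ± 0.16), Ppp2r1b, a phosphatase 2A scaffold (0.64 ± 0.15), Trdmt1, a tRNA methyltransferase (0.59 ± 0.15), and Ccdc45, now Cep95 (0.56 ± 0.13). In a narrower array interior Nf1 (0.17), Ccdc45 (0.19) and Ptpdc1 (0.04) took the value of a further probe. These values thus do not check the main probe, and that of Nf1 is the one given above. With normexp background correction Trdmt1 was at 0.05. The narrower interior gave no value for Il17re, N4bp2l1, Pold1 and Trdmt1, so these were not checked there. Over the mean of all probes Ccdc45 was at 0.36, Ptpdc1 at 0.36, Ppp2r1b at 0.41 and Nf1 at 0.56. With the array edges kept, Zmpste24 changed sign to -0.48, a value that edge spots entered and that need not come from the same probe. Serpina1d, a serine protease inhibitor, had 3.88 ± 0.97 but was well above background on 4 EV and 3 arrays of each other group.

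Of those with a negative departure, Nr1i3, the nuclear receptor CAR, gave 0.43, 0.60, 0.17, 1.62 and 0.19 in vehicle animals and -0.69, -1.76, -0.79, -1.73 and -1.20 in Scriptaid animals. All vehicle animals were above 0 and all Scriptaid animals below, and the departure was -1.84 ± 0.32 (SE; 95% interval -2.55 to -1.12). The mean level was -1.53 in EV, -0.93 in HV, -1.48 in ES and -2.71 in HS. Pif1, a DNA helicase, gave 0.17, 0.11, -0.20, -0.21 and 0.09 against -1.68, -0.39, -2.51, -1.84 and -2.77, a departure of -1.83 ± 0.38, with HS as the low group at -0.60 beside 1.01 to 1.24 in the others.

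Selp, P-selectin of endothelium and platelets, gave 0.16, 1.03, 0.56, 0.33 and 0.37 against -0.54, 0.03, 0.04, -0.17 and -0.35, a departure of -0.69 ± 0.19. The remaining negative departures were Zfhx4 (-0.98 ± 0.26), Prss22 (-0.81 ± 0.22), Slc16a12, a monocarboxylate-family transporter (-0.81 ± 0.19), Adam6b (-0.80 ± 0.17), Cacnb2, a calcium channel subunit (-0.75 ± 0.20), L3mbtl2 (-0.72 ± 0.17), Alg13 (-0.69 ± 0.16), Zfp955a (-0.58 ± 0.14) and Layn (-1.24 ± 0.30). Layn was well above background on 0 EV and 0 HS arrays. With probes well above background on all 20 arrays, 6 of the 12 negative genes had a value, against 10 of the 12 positive ones. Over the mean of all probes L3mbtl2 was at -0.18 and Alg13 at -0.41. The further probe of L3mbtl2 gave 0.37, of the opposite sign, and that of Alg13 gave -0.12. The narrower array interior gave no value for Nr1i3 and Zfhx4, so these were not checked there. With the array edges kept, Alg13 changed sign to 0.57 and Zfp955a to 0.63. Edge spots entered these values, which need not come from the same probe as the main ones. With normexp background correction 9 of these 12 genes changed sign, all but Nr1i3 (then -0.89), Pif1 and L3mbtl2, as did Pold1 among the positive ones; that correction also moved the median departure of all genes to 0.15. Of the 24 genes, 16 had 1 kept probe, and in 2 of the other 8 (Myh3 and Pold1) every further probe had the same sign and at least 50% of the size.

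**Figure D4:**
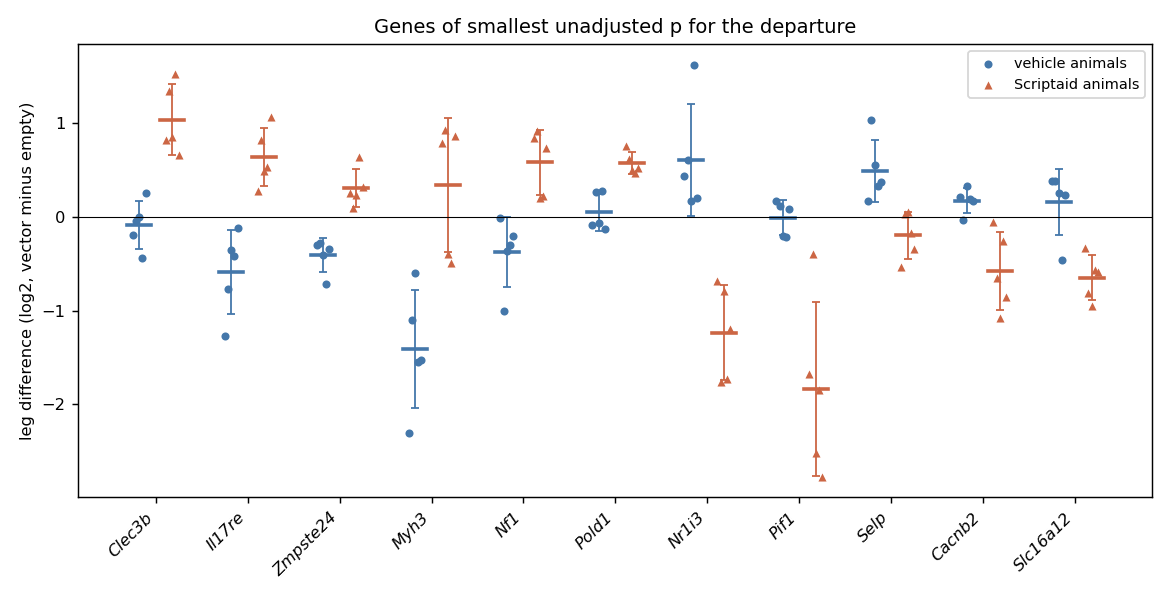
Leg difference (log2) of every animal for 11 genes of smallest departure p; points are animals, bars means and error bars the SD. The genes were chosen for this separation; Clec3b to Pold1 are higher and Nr1i3 to Slc16a12 lower in Scriptaid animals, with Slc16a12 overlapping through vehicle animal 4.

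Scriptaid itself, as the mean of both legs, called 0 genes (0%) by limma. The 5 of smallest p were Arrdc2, an arrestin-domain protein (1.16), Fam107a (1.42), Fam150b, now Alkal2 (1.34), Fkbp5, a glucocorticoid-induced chaperone (1.09), and Kazn (-0.56), all log2 differences between Scriptaid and vehicle animals. Their departures were 0.09 ± 0.27 (SE) for Arrdc2, 0.10 ± 0.17 for Fkbp5, 0.21 ± 0.31 for Kazn and -0.68 ± 0.41 for Fam107a. Fam150b departed by 1.37 ± 0.49, but was well above background on 0 HV arrays and 1 EV array.

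Of the native class IIa deacetylases and MEF2 factors, 0 of 8 measured were at p under 0.05. Hdac4 gave 0.71, 0.50, 0.25 and 0.03 in the 4 vehicle animals measured, and -0.51, -0.24, 0.25, 0.79 and 1.21 in Scriptaid animals, a departure of -0.08 ± 0.35 (SE). Hdac5 departed by -0.02 ± 0.25 over 4 vehicle and 3 Scriptaid animals, since limma drops animals with a spot left out. The vector sequences are not given, so these probes do not check the vectors. Hdac7 departed by 0.07 ± 0.11, Hdac9 by 0.04 ± 0.30, Mef2a by 0.24 ± 0.19, Mef2c by -0.35 ± 0.23 and Mef2d by -0.12 ± 0.20. Mef2b had the largest departure of the 8, -0.80 ± 0.41, which was -0.37 without vehicle animal 5.

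Gene lists are described by their counts beside those of all genes, of which 54.9% had a positive departure, 4.89% were at p under 0.05 and the median departure was 0.03. Of the fast-fibre contractile genes, 9 of 10 measured were saturated on all 20 arrays and 1 on 19, so no departure is read from them. Slow-fibre genes had 8 of 9 positive departures and a median of 0.50, with 1 at p under 0.05 and with Myl3 saturated on 19 arrays; the median ranged from 0.27 without Scriptaid animal 1 to 0.81 without vehicle animal 3. That gene, Myl2, the slow regulatory myosin light chain, gave -2.93, -3.25, 0.38, -2.98 and -0.50 in vehicle animals and 0.96, 3.53, 0.02, -1.81 and 2.42 in Scriptaid animals. Its departure was 2.88 ± 1.06 (SE) with an exact permutation p of 0.0476. Genes of developing muscle had 6 of 7 positive and 2 at p under 0.05, Myh3 and Tnnt2, the cardiac and embryonic troponin T (1.39 ± 0.41, exact permutation p 0.0238). The list median is the value of Myh8, which was saturated on all 20 arrays, so it gives no size for the list. None of the lists held a called gene.

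Markers of other cells varied between single legs. In bulk tissue fewer cells of a type and less RNA per cell cannot be told apart. Adipocyte markers had 10 of 10 positive departures and a median of 1.24, with 0 at p under 0.05; their median leg differences were -2.28, 0.12, 1.77, 1.25 and -0.73 in vehicle animals and 0.45, 0.71, 3.04, -0.44 and 3.94 in Scriptaid animals. Red blood cell markers had 5 of 5 positive and a median of 1.26, with -2.88, 0.13, 0.12, -0.48 and -0.09 against 0.73, 2.59, -0.41, -0.14 and -0.25. The groups overlapped in both lists, and the list median was 0.72 for adipocytes without Scriptaid animal 5 (0.74 without vehicle animal 1) and 0.72 for red blood cells without vehicle animal 1 (0.75 without Scriptaid animal 2). From the authors' deposited matrix the adipocyte median was 0.24.

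Schwann cell markers had 8 of 9 positive departures and a median of 0.64. Vehicle animal 1 stood lowest at a median of -2.64, and without it the list's median was 0.43. Cell cycle genes had 8 of 10 positive and a median of 0.91, with 1 at p under 0.05, Cdk1 (2.12 ± 0.93), which was well above background on 1 EV, 1 HV, 0 ES and 3 HS arrays. Scriptaid animal 2 had a list median of 3.05 where the other 9 animals lay between -1.37 and 0.14, and without it the list's median was 0.24, and without vehicle animal 1 it was 0.50. With probes well above background on all 20 arrays it was 0.23. Macrophage markers (1.61), T and B lymphocyte markers (1.20) and fibroblast and matrix markers (1.02) were also highest in Scriptaid animal 2, and their part in the cell cycle value was not tested. Endothelial markers had 9 of 9 negative departures at a small median of -0.15, and tendon markers 6 of 7 at -0.35, none of either at p under 0.05. The tendon median changed sign, to 0.11 without vehicle animal 5, 0.06 without Scriptaid animal 4 and 0.16 without Scriptaid animal 5. The part of these cell markers in the departures of other genes was not tested.

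Stress-related lists had small median departures. Targets of p53 had 12 of 13 positive departures and a median of 0.23, with 3 at p under 0.05, among them the pro-apoptotic Bbc3 (0.34 ± 0.13, SE) and Sesn1 (0.64 ± 0.28). The further probe of Sesn1 gave -0.04. Heat shock genes had 9 of 11 positive and a median of 0.16. Dnajb1, an Hsp70 co-chaperone, gave -0.04, 0.49, 0.04, -0.12 and 0.11 against 0.73, 0.33, 0.71, 0.92 and 1.34, a departure of 0.71 ± 0.20 with an exact permutation p of 0.0159. Its further probe gave -0.02. Immediate early genes had 8 of 12 positive and a median of 0.17, led by Fos (1.03 ± 0.42). Leaving out vehicle animal 5 lowered the p53 median to 0.14 and the heat shock median to 0.06, while the heat shock median was 0.31 without Scriptaid animal 3 and -0.10 with normexp background correction, and leaving out vehicle animal 3 lowered the immediate early median to 0.10. Of the glucocorticoid target, circadian clock and atrophy lists, 0 genes were at p under 0.05. Nothing is read from the glycolysis and oxidative phosphorylation lists, where many probes were saturated.

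**Figure D5:**
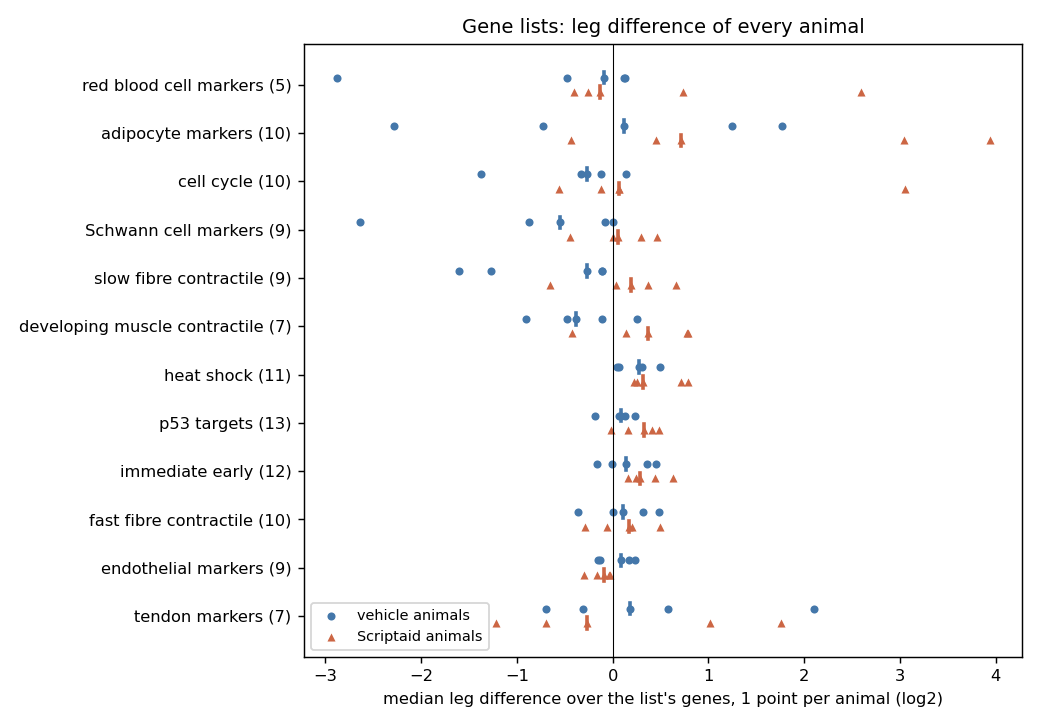
Median leg difference (log2) of the measured genes of 12 lists in each animal, with a tick at the group's median. Single animals stand apart in several lists, such as vehicle animal 1 for red blood cell markers (-2.88) and Scriptaid animal 2 for cell cycle genes (3.05).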

How the data were processed

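Per the labels' protocols, 100 ng of RNA was labelled for each one-colour array. Per the file headers, Agilent Feature Extraction 9.5.1.1 produced the processed intensity per spot, and the authors deposited that intensity for all 20 arrays. The deposited series matrix holds a ratio, the processed intensity over one constant per array, for 23678 probes, and served as an alternative. Of 43379 non-control spots, the 38182 in columns 1 to 77 and rows 11 to 522 were used. Spots marked as non-uniform or as outliers were left out, the log2 intensity less the array's 75th percentile was averaged per probe, and probes were kept when well above background on at least 5 arrays with at least 3 animals per group, which gave 21089 probes and, with the brightest probe per gene, 14594 genes. Gene names are the files'; 11446 matched GRCm38.p6 symbols and 1096 differ there.

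Leg differences within an animal, paired by the animal identifiers, were fitted with limma 3.58.1 in R 4.3.3 (moderated variances, two-sided, Benjamini-Hochberg over all genes, called at 0.05). Deviations from group means correlated at 0.02 to 0.43 between the legs of a vehicle animal and 0.23 to 0.40 between those of a Scriptaid animal. Between different animals on one slide they correlated at 0.146 to 0.291 for EV and ES and 0.05 to 0.405 for HV and HS. Both legs of an animal share a slide, so these values do not tell animal from slide. The exact permutation test enumerates 252 assignments of the animals (smallest p 0.00794). Every slide held 1 array of each group. The text names the 12 genes of smallest departure p in each direction, the 10 of smallest p among those called for the vector average and the 5 for Scriptaid, 7 deacetylase and MEF2 genes, earlier vector-responsive genes and leaders of lists; 5 and 15 clone names were passed over. A result that the rule picked is not reported here; counts, lists and tests include it. Members and lists were chosen with earlier results of these data known. The fit was tested on simulated data.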

Additional observations from a re-analysis of the deposited data

Results flagged for a closer look

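Among 190 groups of leg differences screened (named genes and list medians, vehicle and Scriptaid animals apart), 9 held an animal far from the others, where chance gives about 1 in 20 groups. Slc16a12 was at -0.46 in vehicle animal 4 (others 0.24 to 0.38) and Alg13 at 0.43 in vehicle animal 1 (others -0.11 to -0.01). Zfp955a was at -0.04 in Scriptaid animal 4 (others -0.40 to -0.31). In Scriptaid animal 1, Zfhx4 was at -1.81 (others -0.78 to -0.50) and Prss22 at -1.47 (others -0.69 to -0.37). Alas2, the erythroid enzyme of haem synthesis, was at -2.88 in vehicle animal 1 (others -0.52 to 0.07), with a level of 2.70 in the left leg and -0.18 in the right. The list median of red blood cell markers was -2.88 in that animal (others -0.48 to 0.13). Alas2 is among the 5 measured genes of that list and has the same value there, so the 2 flags are not separate. The cell cycle median was 3.05 in Scriptaid animal 2 (others -0.56 to 0.07), and that of fatty acid uptake and oxidation genes 0.33 in Scriptaid animal 1 (others -0.02 to 0.04).

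In 6 named genes all vehicle animals moved one way and all Scriptaid animals the other. Most named genes were picked for their departure p; over the 12845 genes measured in all animals there were 27 such genes. Their departures were -1.84 for Nr1i3, 1.22 for Il17re, 0.96 for Nf1, 0.72 for Zmpste24, 0.64 for Ppp2r1b and -0.58 for Zfp955a, and the limma test of the difference passed for none of them (adjusted p 0.875 or above).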

How the results depend on the processing

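No departure was called under any alternative but one. With all spots kept, edges included, 19 genes were called and 1090 of 15656 (6.96%) were at unadjusted p under 0.05. Then 253 did not overlap, and the vector called 250 genes in Scriptaid animals, 268 on average, and Scriptaid 31. Zmpste24, Alg13 and Zfp955a changed sign there, with edge spots in their values. With normexp there were 2137 genes (14.6%) at p under 0.05 and 406 without overlap. The vector then called 5 genes in Scriptaid animals and 8 on average, and Scriptaid called 1. The correlation was r = 0.071, and 87.5% of vector-called genes went along the vector. With no filter on dim probes, 1226 of 24927 genes (4.92%) were at p under 0.05, near the 4.89% of the main fit. Of these 24927 genes, 226 did not overlap. The vector called 1 gene in vehicle animals and 3 on average, and r was 0.115. The vector average called 39 genes with marked spots kept, 98 with quantile normalization, 244 with probes well above background on all 20 arrays (3 in Scriptaid animals), 157 with the authors' deposited matrix (6 in Scriptaid animals, 93 without overlap) and 3 with trended robust variance (0 in Scriptaid animals). A narrower interior called 0 in Scriptaid animals.

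With no replicate block (4 group means in place of animal pairs), 314 genes were at p under 0.05, and the vector called 3 genes in Scriptaid animals and 34 on average, Scriptaid 17. With the slide as replicate block, the vector called 2 genes in vehicle animals, 3 in Scriptaid animals and 8 on average. The cause of these shifts was not tested.

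Leaving out 1 animal at a time, departures called stayed at 0, genes at p under 0.05 ranged from 578 to 919, those without overlap from 198 to 407 (fewer animals separate more easily), the vector average from 2 (without Scriptaid animal 1, 4 or 5) to 190 (without vehicle animal 5), the vector in vehicle animals from 0 to 1 and in Scriptaid animals from 0 to 5, Scriptaid stayed at 0, r ranged from 0.16 to 0.32, and the share along the vector from 48.4% to 86.9%. That share is over the genes called anew in each fit, so its genes differ from fit to fit. Over the same 60 genes, 36 to 49 went along. Since no departure was called in the main fit, none could reverse. Over all 23 alternatives, 107 of 2427 departures of named genes and 106 of 713 list medians changed sign. Probes near background or saturated limit what the arrays resolve.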
